A study of Homo sapiens with 21 samples.

Results

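Of 18322 genes with at least 1 HNRNPK cluster in MDA-MB-231 cells, 9 carried clusters in 1 of the 2 cell lines compared and next to none in the other. NRG2, FGF13, NEO1, ELMO1 and FBXL7 carried them in parental cells, and COX7B2 and the non-coding RNAs RP11-169F17.1, RP11-260O18.1 and RP11-541G9.1 carried them in KRT19 KO cells. The genes were chosen by their measured cluster counts, as those with at least 10 clusters in both libraries of 1 line and at most 1 cluster in each library of the other. A cluster is a short stretch of RNA covered by overlapping reads that hold T-to-C changes, and the smallest clusters listed had 5 reads. The parental rule was met by 5 of the 3749 genes with at least 10 clusters in both parental libraries (0.133%) and the KRT19 KO rule by 4 of 3414 (0.117%). These counts and shares describe the choice itself and are no result about the genes, and no test was run on them.

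MDA-MB-231 is an established triple-negative breast cancer cell line, and the KRT19 KO cells were made from it with CRISPR/Cas9 to remove keratin 19. PAR-CLIP of HNRNPK was carried out on the cytoplasmic and the nuclear fraction of parental and of KRT19 KO cells, both after 4-thiouridine (4SU) labelling and ultraviolet crosslinking, with 1 library for each of the 4 conditions. Without replicates, no difference between the lines has a replicate check and all intervals given cover counting error only. The lines also differ in whatever else separates an edited and expanded line from its parent, and the sources used here do not say whether the KRT19 KO cells are 1 clone, so an effect of keratin 19 and a difference between lines cannot be told apart.

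HNRNPK is an RNA-binding protein with KH domains that prefers single-stranded RNA rich in cytidine. It is found mostly in the nucleus, where much of the RNA it meets is unspliced, and it shuttles to the cytoplasm. In PAR-CLIP, a labelled uridine that has been crosslinked to the protein shows up as C instead of T in the sequenced read, so a single read gives both the position of contact and a mark of crosslinking. The number of clusters on a gene follows the amount of its RNA as well as the binding to that RNA, and these cannot be told apart here, since no RNA-seq library was analysed here.

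The sequences of 1 cluster per gene are shown because they are what the protein was crosslinked to. For each gene it is the cluster with the most reads among those of at most 30 nt that hold at least 2 unique reads. The files count unique reads beside reads without saying how, and they are taken here as reads of distinct sequence. They were read from the deposited clusters, run 5′ to 3′ on the strand of the gene, carry T in place of U, and have capitals for runs of at least 3 C. Positions are on GRCh37 (hg19).
NRG2, intron, chr5:139312162-139312186, minus strand, parental nucleus: caaaatCCCaaatacaattctatta
FGF13, 3′UTR, chrX:137714424-137714451, minus strand, parental cytoplasm: tcacttaatccaaatcaaccaaattcag
NEO1, intron, chr15:73373800-73373825, plus strand, parental nucleus: ttttacttttcctaaaattccttcta
ELMO1, intron, chr7:37241832-37241861, minus strand, parental cytoplasm: tttCCCtatatCCCttattaataactggga
FBXL7, intron, chr5:15642647-15642676, plus strand, parental nucleus: ctcttccttacaccaaaaCCCaaaCCCCac
COX7B2, intron, chr4:46841031-46841060, minus strand, KRT19 KO nucleus: atattcctaaaataaaacataaaaattata
RP11-169F17.1, chr18:70918066-70918094, minus strand, KRT19 KO cytoplasm: aatttttcttCCCtcaaacaaaatcattt
RP11-260O18.1, intron, chr3:82248215-82248236, plus strand, KRT19 KO nucleus: tatccatctcactacaataatc
RP11-541G9.1, intron, chr12:97410935-97410959, plus strand, KRT19 KO nucleus: tccaCCCataacaataatCCCatta
Of these 9 sequences, those of NRG2, ELMO1, FBXL7, RP11-169F17.1 and RP11-541G9.1 have a run of at least 3 C, and the other 4 do not. The clusters shown for COX7B2, RP11-169F17.1 and RP11-541G9.1 overlap a cluster in the other fraction of the same line, while the rest were found in 1 fraction. In KRT19 KO cytoplasm the COX7B2 site gave atattcctaaaataaaacataaaaattat, chr4:46841032-46841060, with 50 reads against the 66 reads of the nuclear cluster.

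NRG2 and FGF13 belong to growth factor families. NRG2 encodes neuregulin 2, a ligand of the ErbB receptors, and lies on chr5:139226364-139422884 on the minus strand (197 kb). It had 16 clusters with 140 reads in parental cytoplasm, 14 clusters with 153 reads in parental nucleus, and 0 clusters in both KRT19 KO libraries. All 30 were intronic, and 28 of them lay in intron 1 of the canonical transcript. The sequence TCCC occurred in 18 of the 30 clusters (60.0%, 95% exact binomial interval 40.6 to 77.3%), against 18.8 to 34.9% of the clusters of the other 8 genes. NRG2 clusters also had the highest share of C among the 9 genes, 32.3% of bases.

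FGF13 encodes a fibroblast growth factor homologous factor, which stays inside the cell and binds voltage-gated sodium channels. It lies on chrX:137696888-138304939 on the minus strand and is the longest of the 9 genes (608 kb). Its clusters numbered 19 in parental cytoplasm and 18 in parental nucleus, with 180 reads in each, against 0 in KRT19 KO cytoplasm and 1 in KRT19 KO nucleus. The gene held 2 clusters in the 3′UTR, both in parental cytoplasm, with 24 and 37 reads and 6 and 17 unique reads. The other 35 were intronic and were spread along the gene, with 1, 12, 13 and 9 clusters from the first to the last of 4 equal parts. Of all 37 clusters, 25 rested on 1 unique read. In the canonical transcript, 3 lay in intron 3 and the other 34, the 2 of the 3′UTR among them, in none of its introns. The single KRT19 KO cluster under this gene name had 9 reads and 1 unique read, and lay 2612 nt from the nearest parental cluster. Counted by position on the strand of the gene instead of by name, parental cytoplasm had 20 clusters and KRT19 KO cytoplasm 1.

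NEO1 and ELMO1 act at the cell surface and just beneath it. NEO1 encodes neogenin, a receptor for netrins and repulsive guidance molecules, and lies on chr15:73344051-73597546 on the plus strand (253 kb). It had 21 clusters with 309 reads in parental cytoplasm and 23 clusters with 265 reads in parental nucleus, the most clusters of the parental genes. KRT19 KO cytoplasm held 1 cluster of 5 reads and KRT19 KO nucleus held 0. The largest NEO1 cluster lay in the 3′UTR, 0.3 kb before the annotated end, and was found in both parental fractions at chr15:73597246-73597278. It had 127 reads and 44 unique reads in cytoplasm and 33 reads and 8 unique reads in nucleus. Intron 7 held 14 and intron 5 held 12 of the 44 clusters, and 1 cluster of 6 reads lay in coding sequence.

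ELMO1 encodes a protein that joins DOCK1 to activate the small GTPase Rac during cell migration and engulfment. It lies on chr7:36892511-37488826 on the minus strand (596 kb). It had 11 clusters with 109 reads in parental cytoplasm and 12 clusters with 157 reads in parental nucleus, against 0 in both KRT19 KO libraries. All 23 were intronic and were dispersed over 9 introns, with no more than 6 in any 1 of them. ELMO1 had the sparsest clusters of the 9 genes, 3.86 per 100 kb over both parental libraries. No ELMO1 cluster in cytoplasm overlapped one in nucleus.

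FBXL7 encodes an F-box protein, the part of an SCF ubiquitin ligase that picks the substrate. It lies on chr5:15500289-15939904 on the plus strand (440 kb). It had 20 clusters with 163 reads in parental cytoplasm and 19 clusters with 193 reads in parental nucleus, and 0 in both KRT19 KO libraries. All were intronic, 32 in intron 2 and 7 in intron 1, and 22 of the 39 clusters rested on 1 unique read.

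COX7B2 is the only protein-coding gene of the 4 held by KRT19 KO cells. It encodes a paralog of COX7B, a subunit of cytochrome c oxidase in the respiratory chain, and is known from testis. It lies on chr4:46736844-46911262 on the minus strand (174 kb). It had 39 clusters with 541 reads in KRT19 KO cytoplasm and 47 clusters with 806 reads in KRT19 KO nucleus, against 0 and 1 in parental cytoplasm and nucleus. All 86 were intronic, 35 in intron 1 and 51 in intron 2, and none lay in an annotated exon. Per 1000000 reads in clusters of the library, COX7B2 took 87.0 reads in KRT19 KO cytoplasm and 248 in nucleus. The parental cluster had 9 reads and 1 unique read and lay 87 nt from the nearest KRT19 KO cluster without overlapping it.

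RP11-169F17.1 had the most clusters and reads of the 9 genes. By position it is the long non-coding RNA LINC02864, on chr18:70818476-70931715 on the minus strand (113 kb). It had 54 clusters with 1353 reads in KRT19 KO cytoplasm and 52 clusters with 777 reads in KRT19 KO nucleus, against 0 in both parental libraries. The deposited files put all 106 in the class of nonsense-mediated decay transcripts, a class given for the transcript and not for the place of the cluster within it, and 17 of the 106 overlapped an exon of GENCODE. Of the clusters, 56 lay in intron 2 of the canonical transcript. The largest, at chr18:70827904-70827936, had 284 reads and 156 unique reads in cytoplasm. It overlapped a nuclear cluster of 34 reads and 6 unique reads. With 93.6 clusters per 100 kb over both KRT19 KO libraries, this RNA had the densest clusters of the 9.

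The other 2 non-coding RNAs had fewer reads. RP11-260O18.1 is LINC02008 by position, on chr3:82035289-82512826 on the plus strand (478 kb). It had 23 clusters with 172 reads in KRT19 KO cytoplasm and 25 clusters with 256 reads in KRT19 KO nucleus, against 0 and 1 in parental cytoplasm and nucleus. The parental cluster had 18 reads and 4 unique reads, the most of the 4 clusters that any of the 9 genes had in the other line, and lay 631 nt from the nearest KRT19 KO cluster. Intron 1 held 27 and intron 3 held 18 of its 48 clusters, and no cytoplasmic cluster overlapped a nuclear one.

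RP11-541G9.1 corresponds to a long non-coding RNA without a gene symbol in GENCODE, on chr12:97379434-97579387 on the plus strand (200 kb). It had 13 clusters with 102 reads in KRT19 KO cytoplasm and 12 clusters with 110 reads in KRT19 KO nucleus, against 0 in both parental libraries. All 25 lay in the single intron of its canonical transcript, with 15 in the first of 4 equal parts of the gene and 3 in the last.

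**Figure D1:**
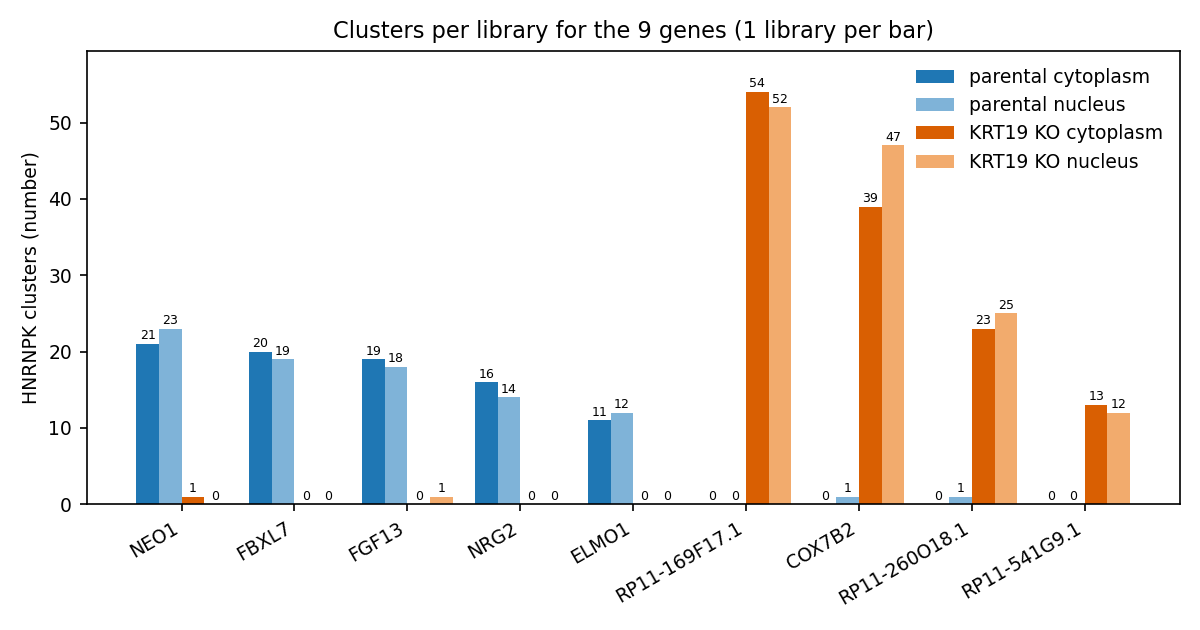
The number of HNRNPK clusters (y axis) of each of the 9 genes in each of the 4 libraries, 1 bar per library with its count above it. The genes held by parental cells had 11 to 23 clusters per library and those held by KRT19 KO cells 12 to 54, against 0 or 1 in the other line.

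The 438 clusters of the 9 genes in the line that holds them differed in the number of unique reads behind them. In parental cells, 87 of the 173 clusters (50.3%) rested on 1 unique read, compared with 29.1% of the clusters of the other 3744 genes with at least 10 clusters in both parental libraries. In KRT19 KO cells, 72 of 265 (27.2%) did, close to the 24.1% of the other 3410 genes. The median cluster had 8 reads in the parental genes against 11 in the other genes, and 10 against 11 in the KRT19 KO genes. Thus the clusters of the parental genes were smaller and rested more often on 1 unique read than those of other well-covered genes, while the KRT19 KO genes as a group were nearer to the rest. Within that group, RP11-169F17.1 had 20 such clusters of 106 and COX7B2 21 of 86, whereas RP11-541G9.1 had 13 of 25 and RP11-260O18.1 18 of 48.

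**Figure D2:**
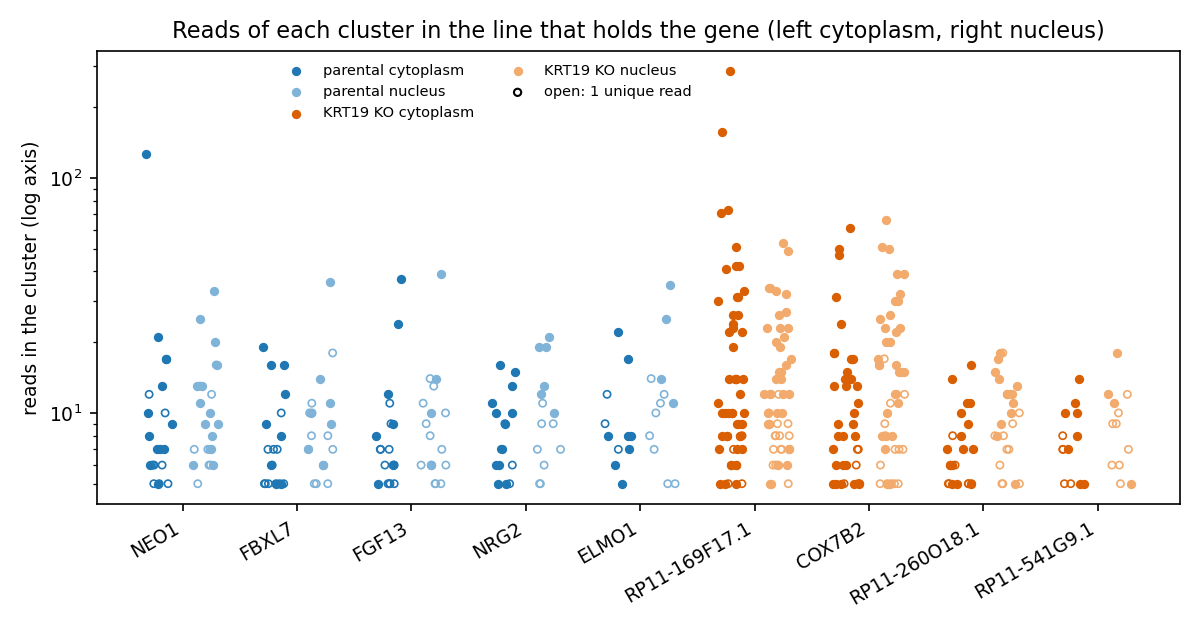
Reads (log axis) of each cluster in the line that holds the gene, cytoplasm on the left and nucleus on the right of each gene, with open circles for clusters of 1 unique read. Clusters above 50 reads occurred in NEO1 (127 reads), RP11-169F17.1 (up to 284) and COX7B2 (up to 66), and the other 6 genes stayed at or under 39.

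Which genes met the rule depended on how much support a cluster needed. With clusters of at least 2 unique reads, 2 genes met the parental rule, NEO1 and HS6ST3, which was not among the 9. With clusters of at least 10 reads, ATP10A alone met it, and with at least 2 conversion locations no gene did. For KRT19 KO cells the same filters gave 4, 3 and 3 genes, and COX7B2 and RP11-169F17.1 met the rule under each. RP11-260O18.1 met it with at least 2 unique reads only, and RP11-541G9.1 under none of the 3. Genes not among the 9 made up the rest. PLCB4 met the rule with at least 2 unique reads and with at least 10 reads, and CTD-3006G17.2 with at least 2 conversion locations. Each filter also takes clusters from every other gene, so the genes with at least 10 clusters in both parental libraries fell to 2627, 2127 and 1141. Those with at least 10 in both KRT19 KO libraries fell from 3414 to 2513, 1831 and 907.

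The rule left out genes with a little more signal in the other line. Just inside its limits, ELMO1 had 11 and 12 clusters in parental cytoplasm and nucleus and 0 in KRT19 KO cells, and RP11-541G9.1 had 13 and 12 in KRT19 KO cells and 0 in parental cells. Just outside them, 13 genes had at least 10 clusters in both parental libraries and 2 or 3 in the KRT19 KO library with more of them. HS6ST3, which adds sulfate to heparan sulfate chains, had 28 and 28 clusters in parental cytoplasm and nucleus and 2 and 2 in KRT19 KO cells. MYO1D, a class I myosin, had 22 and 18 against 0 and 2. On the KRT19 KO side PLCB4, a phospholipase C, had 45 and 66 clusters against 2 and 3 in parental cells, more clusters than COX7B2 in both fractions.

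**Figure D3:**
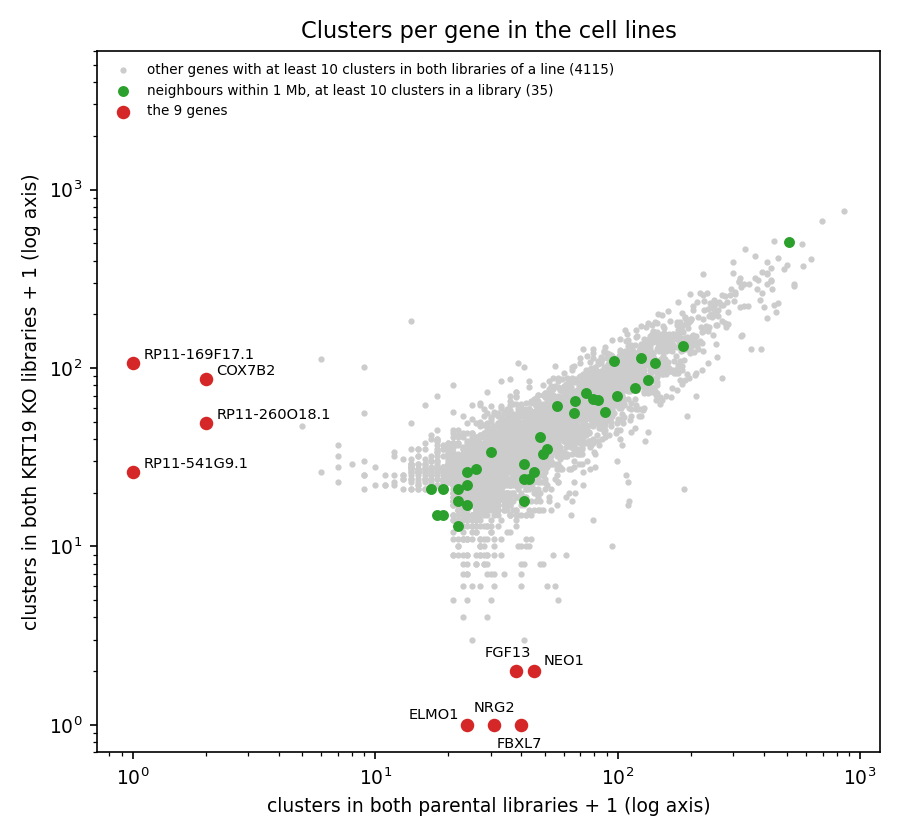
Clusters per gene in both parental libraries together (x) and in both KRT19 KO libraries together (y), each plus 1, on log axes, for the 9 genes, their 35 neighbours with at least 10 clusters in a library, and the other 4115 genes with at least 10 clusters in both libraries of a line. The 9 genes lie along the axes by the way they were chosen, and the neighbours lie among the other genes.

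T-to-C changes, the mark of crosslinking, were carried by 70.2 to 93.9% of the clustered reads, depending on the gene. Over the 5 parental genes the share was 82.4%, against 67.1% for the other genes with at least 10 clusters in both parental libraries, and over the 4 KRT19 KO genes it was 76.0% against 65.8%. The highest shares were those of RP11-260O18.1 (93.9%) and FBXL7 (89.0%). NEO1 and RP11-169F17.1 had the lowest, 70.2% each. Averaged over clusters instead of reads, which gives small clusters more weight, the share was 88.5% for the 9 genes together, against 78.0% over reads. The comparison with other genes was not matched for support. In the 9 genes, all reads of the clusters with the fewest unique reads carried T-to-C changes. Such clusters made up 50.3% in the parental genes against 29.1% in the other genes, and 27.2% against 24.1% for KRT19 KO. With at least 2 unique reads the share for the 9 genes was 72.5%, and with at least 10 reads 71.8%. Whether the genes differ at equal support was not tested.

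TCCC occurred in 31.8% of the clusters of the 5 parental genes (24.9 to 39.3%), against 30.3% in the other well-covered genes. Without NRG2 it occurred in 37 of 143 clusters (25.9%, 18.9 to 33.9%), and each of the other 4 parental genes lay below 30.3%. It occurred in 26.8% of those of the KRT19 KO genes (21.6 to 32.6%), against 29.3%. Bases in clusters were 26.5% C and 35.6% U in the parental genes and 25.7% C and 36.1% U in the KRT19 KO genes. The share of G was 3.91% in the KRT19 KO genes and 6.20% in the other genes of that line, and it was lowest in RP11-541G9.1 (3.07%) and RP11-169F17.1 (3.39%).

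Introns held 167 of the 173 parental clusters (96.5%), compared with 86.9% in the other well-covered genes of that line. For the KRT19 KO genes, 159 of 265 clusters (60.0%) were classed as intronic against 82.5%, since the files class none of the 106 clusters of RP11-169F17.1 as intronic. When clusters were instead placed by the exons of GENCODE, 94.7% of the clusters of the 9 genes lay outside exons. Of the clusters classed as intronic, 83 were cytoplasmic and 84 nuclear in the parental genes, and 75 and 84 in the KRT19 KO genes. The choice of the genes required clusters in both fractions, so this balance is no result. The purity of the fractions was not tested here.

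The same positions were seldom found in both fractions of the parental genes. Of 87 cytoplasmic clusters, 7 overlapped a nuclear cluster by at least 1 nt (8.05%, 3.30 to 15.9%), compared with 25.2% in the other well-covered genes. Among these 7, NEO1 had 4, and NRG2, FGF13 and FBXL7 had 1 each. The comparison was not matched for support. Clusters of the parental genes had a median of 8 reads against 11, and 50.3% against 29.1% rested on 1 unique read. Whether this accounts for the lower overlap was not tested. In the KRT19 KO genes 34 of 129 overlapped (26.4%, 19.0 to 34.8%), which is about the share of other genes (26.2%), and all but 2 of them were in RP11-169F17.1 (17) and COX7B2 (15). None of the 4 clusters in the other line overlapped a cluster of the line that holds the gene. The share of all clusters that overlap between the lines was not computed, so this count has no background.

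All of the parental genes were long and sparsely covered. Their lengths ran from 197 to 608 kb, against a median of 102 kb for the other genes with at least 10 clusters in both parental libraries that had a length (91.1% of them). Clusters numbered 3.86 to 17.4 per 100 kb over both libraries, against a median of 53.8. On the KRT19 KO side RP11-260O18.1 (10.1) and RP11-541G9.1 (12.5) were as sparse, COX7B2 (49.3) was near the median of 52.7, and RP11-169F17.1 (93.6) was above it. Length enters the choice, since a long gene reaches 10 clusters at a low density.

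**Figure D4:**
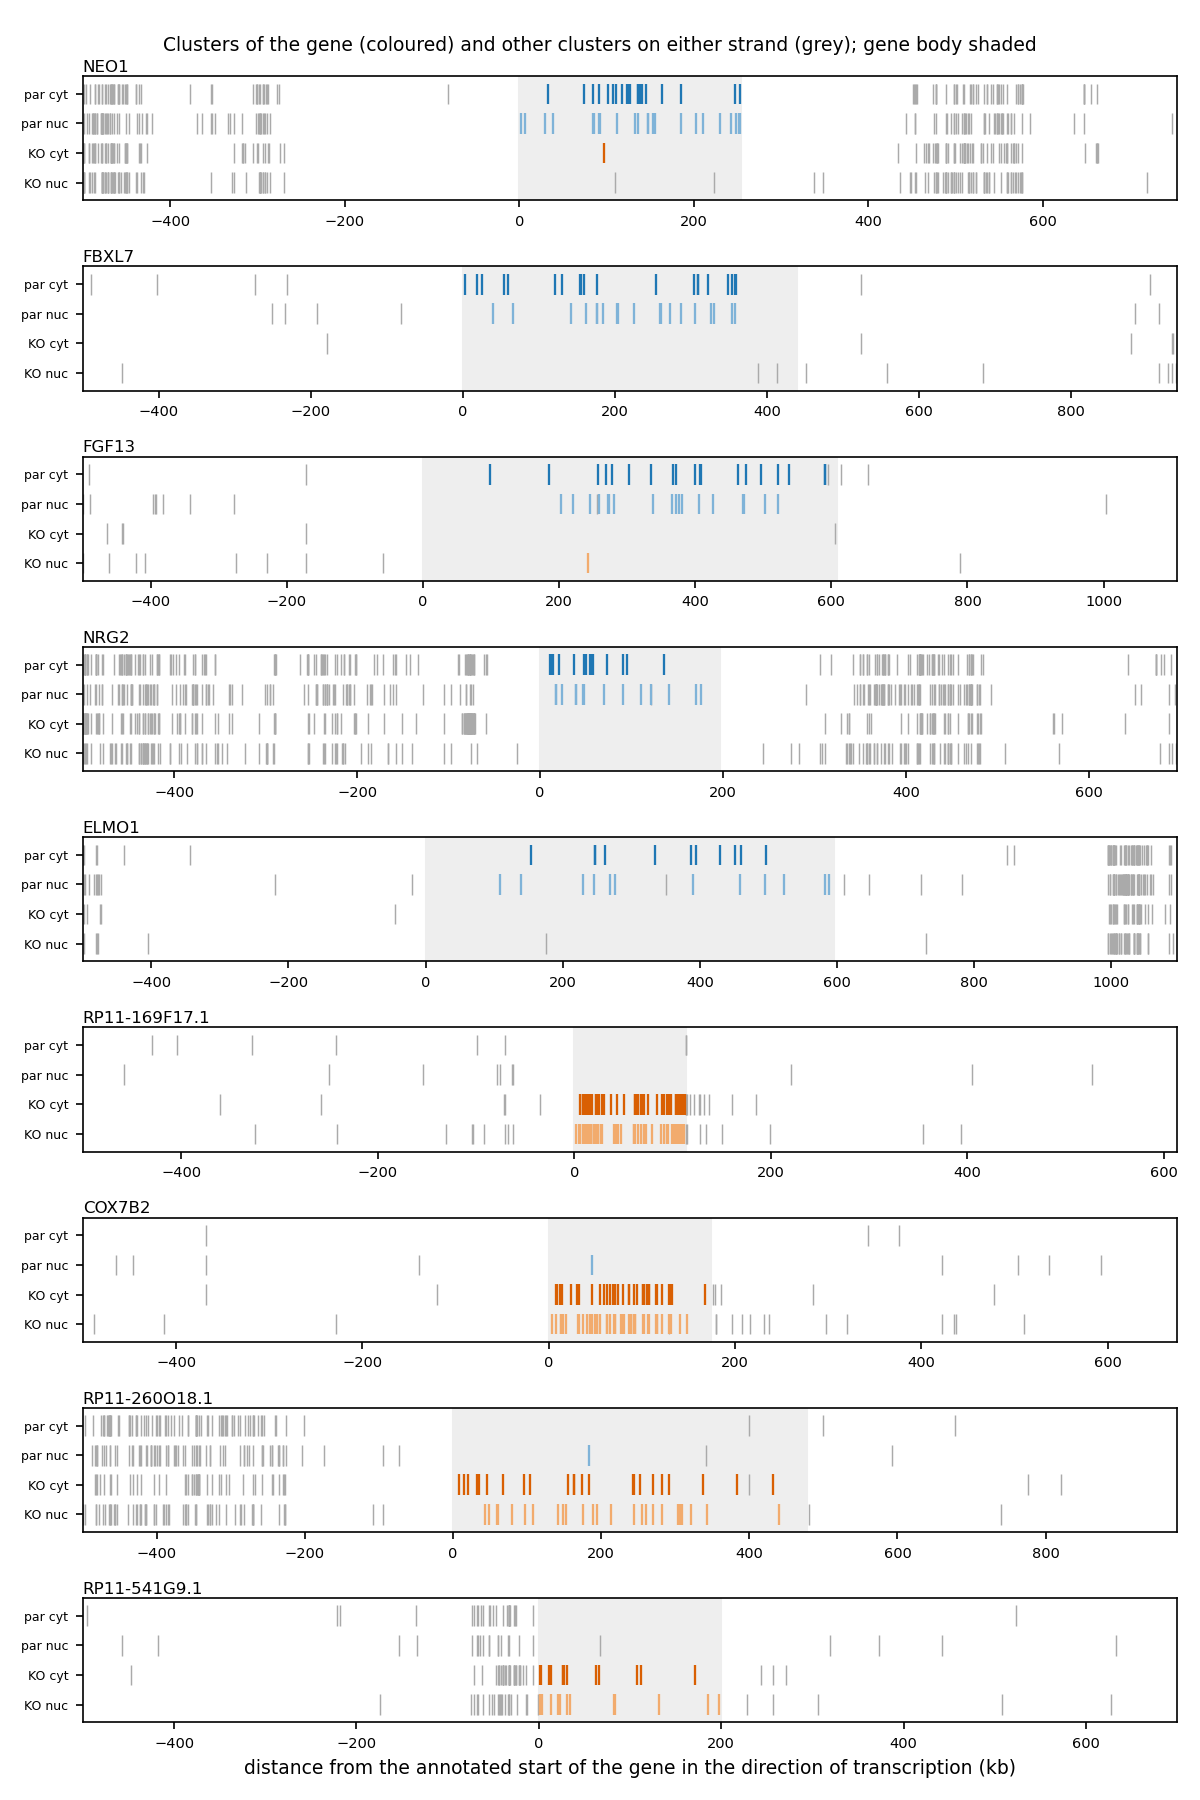
Clusters along each gene and 500 kb to either side in the 4 libraries, by distance from the annotated start in the direction of transcription (kb), with clusters of the gene in colour, other clusters on either strand in grey and the gene body shaded. Coloured clusters number 0 or 1 per library in the other line, whereas the dense groups of grey clusters occur in all 4 libraries.

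Most neighbouring genes had clusters in both lines. In the 1 Mb on either side of the 9 genes, clusters of 111 other genes were found, 81 of them with clusters in both lines, and none met the rule. Among all genes with at least 10 clusters in both libraries of a line, 0.133% met the parental rule and 0.117% the KRT19 KO rule. That no neighbour met it is therefore no result about the neighbours. The share of all genes with clusters in both lines was not computed, so the counts of neighbours have no background. All 35 neighbours with at least 10 clusters in a library had clusters in all 4 libraries, with a ratio of parental to KRT19 KO clusters between 0.80 and 2.35 (median 1.24). For comparison, the ratio had a median of 1.17 over the other genes with at least 10 clusters in both parental libraries (percentiles 5 and 95, 0.73 and 2.23). Over the other genes with at least 10 in both KRT19 KO libraries, the ratio of KRT19 KO to parental clusters had a median of 0.94. Both sets were chosen by 1 line and the neighbours by any library, so the comparison is not like for like. The 30 neighbours with clusters in 1 line only had at most 4 in any library. In the 1 Mb flanks of all 9 genes together there were 2354 clusters in parental and 2136 in KRT19 KO libraries. Within 250 kb there were 316 and 338, and with at least 2 conversion locations 760 and 847. These counts were not scaled to the libraries. In all, 201726 and 200387 clusters were listed in parental cytoplasm and nucleus, and 177530 and 199119 in KRT19 KO cytoplasm and nucleus. Within 250 kb, the flanks of the 5 parental genes held 235 parental and 219 KRT19 KO clusters, and those of the 4 KRT19 KO genes held 81 and 119. Around RP11-169F17.1, the 1 Mb flanks held 25 parental and 53 KRT19 KO clusters.

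NPTN, whose nearest cluster lay 256 kb downstream of NEO1, had 28, 27, 30 and 30 clusters in parental cytoplasm, parental nucleus, KRT19 KO cytoplasm and KRT19 KO nucleus, and ADPGK, from 269.8 kb upstream of NEO1, had 11, 10, 8 and 12 in the same order. ANLN, an actin-binding protein of dividing cells with its nearest cluster 399 kb downstream of ELMO1, had 47, 51, 30 and 39. Both sides of NEO1 and the downstream side of ELMO1 were thus covered in parental and KRT19 KO cells. Around RP11-169F17.1 no neighbour reached 10 clusters in a library, and around FGF13 and RP11-260O18.1 1 neighbour each did, so the surroundings of these 3 say little.

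RP11-169F17.1 and COX7B2 had clusters in KRT19 KO cells past their annotated ends. In the 250 kb past the annotated end of RP11-169F17.1, on its strand and with no gene assigned, there were 11 clusters with 149 reads in KRT19 KO cytoplasm and 6 with 70 reads in KRT19 KO nucleus. Parental cytoplasm had 2 there, with 16 reads, at 0.068 and 0.16 kb past the end, and parental nucleus had 1 of 5 reads. Parental cytoplasm thus had a few reads directly beside the annotated end of this RNA. Whether they belong to it was not tested, and the parental count of 0 covers the annotated extent only. COX7B2 had 3 and 9 clusters in the same window in KRT19 KO cytoplasm and nucleus, against 1 and 1 in parental cells, the parental ones 168 and 248 kb past the end. Past the 5 parental genes, and past RP11-260O18.1 and RP11-541G9.1, no library had more than 3 such clusters.

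RP11-541G9.1 differs from the rest in what lies before it. NEDD1, a centrosomal protein gene on the same strand, had its nearest cluster 32.3 kb upstream and 17, 12, 17 and 16 clusters in parental cytoplasm, parental nucleus, KRT19 KO cytoplasm and KRT19 KO nucleus. Between that cluster and RP11-541G9.1, 5, 1, 14 and 6 clusters with no gene assigned lay on that strand, the nearest 0.645 kb before the start of RP11-541G9.1. Between NEDD1 and RP11-541G9.1 there were thus clusters in all 4 libraries, with fewer in parental than in KRT19 KO cells. Whether they come from 1 transcript was not tested. On the strand of the gene, the 50 kb before the other 8 genes held 2 clusters in all, both before ELMO1.

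Related genes were mostly bound in both lines. Of 44 relatives and partners of the 6 protein-coding genes, 42 had a cluster, 36 had clusters in both lines, 22 had at least 10 in a library, and none met the rule. Only 0.133% (parental) and 0.117% (KRT19 KO) of all well-covered genes met it, so that none of the relatives did is no result about them. For all genes, the share with clusters in both lines was not computed, so the counts of relatives have no background either. Values below are in the order parental cytoplasm, parental nucleus, KRT19 KO cytoplasm, KRT19 KO nucleus. Among neuregulins and ErbB receptors, NRG1 had 159, 159, 103 and 117 clusters and EGFR 185, 208, 143 and 200. ERBB4, a receptor of NRG2, had 4, 4, 1 and 15. The FGF13 paralogs FGF11, FGF12 and FGF14 had at most 11 clusters in any library. The netrin NTN4 had 23, 17, 16 and 14 and RGMB, a repulsive guidance molecule, 11, 5, 18 and 9, so clusters of these NEO1 ligands were present in both lines.

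DOCK2, an activator of Rac that works with ELMO1 in blood cells, had 26, 22, 4 and 3 clusters, the nearest to the rule among the relatives. DOCK1 had 68, 99, 37 and 100, DOCK4 89, 99, 35 and 50, and DOCK5 83, 114, 58 and 87. The GTPase RAC1 itself had 11, 10, 11 and 7. All 9 relatives and partners of FBXL7 had at least 10 clusters in some library, and FBXL17, the one with the most, had 78, 56, 37 and 48. COX7B itself had 2, 0, 0 and 0 clusters and COX7A2L 7, 4, 10 and 6, against the 39 and 47 of COX7B2 in KRT19 KO cells.

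Across the libraries, 177530 to 201726 clusters with 3252800 to 6216226 reads were listed. Clusters of 1 unique read made up 14.0% in KRT19 KO cytoplasm and 26.4 to 38.6% in the other 3 libraries. The parental cytoplasmic library listed clusters on 25 chromosome sequences and the others on 77 to 86, since only the latter include unplaced sequences, and all 9 genes lie on chromosomes listed in all 4. Markers of the line had clusters in both lines, with 54 to 72 per library on CD44, 6 to 10 on VIM and 143 to 208 on EGFR. Values here are again in the order parental cytoplasm, parental nucleus, KRT19 KO cytoplasm, KRT19 KO nucleus. KRT8 had 17, 16, 13 and 13 and KRT18 3, 3, 4 and 1. Of the receptors that a triple-negative line lacks, PGR had 0 in each library, ERBB2 0, 4, 0 and 5, and ESR1 10, 9, 2 and 6. VIM had 9 and 8 in parental cytoplasm and nucleus, near the 10 and 9 of ESR1. Cluster counts thus did not separate the markers of the line from the receptors it lacks. KRT19 had 1 cluster in each cytoplasmic library and 0 in each nuclear one, which is too few to check the knockout.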

How the data were processed

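PAR-CLIP cluster tables of 4 libraries were used, and the 17 RNA-seq samples were not analysed here. According to the study's methods, the authors collapsed identical sequences while molecular identifiers were still attached, to remove PCR duplicates, mapped to hg19, and ran PARalyzer through PARpipe to call and annotate clusters. A separate cluster table was deposited for each library. The submitters' processing notes list hg38, bcl2fastq 2.20.0, TopHat, Cufflinks 2.2.1 and Cuffdiff without a role. Cluster sequences were equal to GRCh37 at their positions for 201725 of 201726 clusters in parental cytoplasm, and for all on the reference in the others. The counts the authors deposited for each cluster (reads, T-to-C reads, conversion locations, unique reads) are raw and were used as they are. The deposited fraction, score and log10 columns were not used. No cluster has under 5 reads, so 0 clusters does not mean 0 reads.

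Clusters were counted per deposited gene name. Gene extents, canonical transcripts and exons came from GENCODE on GRCh37, and the RP11 names were matched by position where GENCODE has renamed them. Reads per 1000000 refer to the reads in clusters of a library. Intervals are exact (Clopper-Pearson, 95%) and cover counting error only. The members and lists were chosen with earlier results of these data known. The genes named are the 9 genes, the nearest neighbours and those with at least 10 clusters, a list of relatives, markers of the line, and the genes nearest to the rule. DOCK2 was singled out after its values were seen, and the windows of 250 kb past the gene ends and of 50 kb before them were read after the map of positions. With 1 library per condition no test was run. The counting was tested on simulated data. Alternatives covered the support of clusters, the thresholds, merging of clusters, the width of the flanks, weighting and the motif. Scripts ran in Python 3.11.15 (scipy 1.17.1, pandas 2.3.3, numpy 2.4.6, matplotlib 3.10.9).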

Additional observations from a re-analysis of the deposited data

How the results depend on the processing

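The 9 genes depend on thresholds that no replicate can check, and a cluster needs 5 reads to be listed, so sites of lower coverage in the other line could not be seen. The main values were 5 parental and 4 KRT19 KO genes, 438 clusters in the line that holds the gene and 4 in the other, 2354 parental and 2136 KRT19 KO flanking clusters, 74.4% intronic clusters, 19.0% of cytoplasmic clusters overlapping a nuclear one, 28.8% with TCCC and 78.0% T-to-C reads. With clusters of at least 10 reads these were 1 parental gene, 204 and 1 clusters, 1271 and 1117 flanking clusters, 67.6% intronic and 71.8% T-to-C. With at least 2 conversion locations they were 0 parental genes, 129 and 0 clusters, 760 and 847 flanking clusters, 59.7% intronic, 13.5% overlapping, 34.1% with TCCC and 68.1% T-to-C. With at least 2 unique reads they were 2 parental genes, 279 and 1 clusters, 67.7% intronic and 72.5% T-to-C. At least 5 clusters and 0 in the other line gave 10 parental genes, and at least 20 and at most 2 gave 2. Weighting by reads gave 60.4% intronic, the motif CCC 37.9%, the mean over clusters 88.5% T-to-C, and flanks of 250 kb 316 and 338 clusters. Placing clusters by GENCODE exons, an alternative chosen after seeing the data, gave 94.7% outside exons. The other 17 alternative values stayed within 1.5 times the main count or within its interval, and the number of KRT19 KO genes stayed between 3 and 4. The genes behind that number changed, with only 2 of the main ones left at 10 reads or at 2 conversion locations. With at least 5 clusters and 0 in the other line they were RP11-169F17.1, RP11-541G9.1 and AP000476.1, without COX7B2. No paired analysis was possible because each condition had 1 library.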
